A study of Mus musculus with 12 samples.

Results

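The 6 genes described here encode receptors for noradrenaline and adrenaline: Adra1a, Adra1b, Adra1d, Adra2a, Adra2c and Adrb1. They were chosen by name, as mouse symbols matched to Ensembl gene IDs, and all 6 are among the 48709 genes of the count files and among the 16829 that passed the filter on low counts. RNA was measured in dissected CA1 tissue of the mouse hippocampus, with 6 libraries of the myocardial infarction (MI) group and 6 of the sham surgery (Sham) group. MI was produced by ligating a coronary artery and Sham mice had sham surgery. The labels give no genotype, strain, age, sex or time after surgery, and do not say whether each library came from 1 animal. The p-values therefore cover only the variation among these libraries, which may be technical.

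Noradrenaline reaches the hippocampus mainly through axons of the locus coeruleus, a brainstem nucleus, and its release there bears on arousal, synaptic plasticity and memory. The α1 receptors (Adra1a, Adra1b, Adra1d) act through Gq proteins on phospholipase C and calcium, the α2 receptors (Adra2a, Adra2c) through Gi proteins that lower cyclic AMP (cAMP) and often restrain transmitter release, and the β1 receptor (Adrb1) through Gs proteins that raise cAMP. In the heart, β1 is the main receptor through which sympathetic nerves drive contraction.

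Library totals ran from 20764133 to 35643127 counts, so each receptor rested on between 50 counts (Adra1b in Sham 6) and 1583 counts (Adra1d in Sham 5) per library. Markers of CA1 pyramidal neurons were present in every library, with 12 of 12 listed genes tested and a summed level of 1615 to 1975 CPM (counts scaled to library size) in MI and 1051 to 2356 CPM in Sham. Markers of neighbouring tissue were present as well and differed more between Sham libraries. The dentate granule cell list (10 of 10 tested) summed to 140.2 to 492.4 CPM in MI and 191.0 to 1247 CPM in Sham, and the neocortex list (9 of 9 tested) to 284.4 to 384.6 CPM in MI and 232.2 to 510.7 CPM in Sham. Sham 1 had the lowest CA1 score and the highest neocortex score, Sham 5 the highest CA1 and lowest neocortex score, and Sham 6 the highest dentate score, where a score is the mean over a list's genes of log2 CPM minus each gene's mean over the 12 libraries. Lists also moved with the groups: of 10 oligodendrocyte markers, 10 were higher in MI with a median log2 fold change of 0.51 (5271 to 6653 CPM in MI, 2863 to 5816 CPM in Sham), and of 11 meningeal markers 11 were lower with a median of -0.81 (61.9 to 156.6 CPM in MI, 76.1 to 333.1 CPM in Sham), with 0 genes of either past the adjusted threshold. At an unadjusted p under 0.05, 10 of 10 oligodendrocyte markers were higher, where 3.95% of all genes were, and 7 of 11 meningeal markers lower, where 3.59% were. The region lists leaned with the groups too. In MI, 10 of 10 dentate markers were lower (median -0.50), and of 9 neocortex markers 7 were lower and 2 higher (median -0.34). Of 12 CA1 markers 10 were higher and 2 lower (median 0.18), where 47.6% of all tested genes were higher. At that unadjusted p, 0 dentate and 0 CA1 markers were called, and 2 neocortex markers were higher. With the dentate and meningeal scores as covariates in edgeR, the log2 fold change was 0.28 for Adra1b (-0.20 without them), -0.19 for Adra1d (0.09 without) and 0.039 for Adra2a (-0.18 without), with 0 of 6 receptors past the adjusted threshold. The part of oligodendrocyte content in the receptor values was not tested.

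Promoter sequence from RefSeq's table on GRCm38.p6 is shown for Adra1b and Adrb1, the only receptor genes with windows there that lie outside their annotated exons. That source held no window for Adra1a or Adra1d. GENCODE M21 places 0 exonic bases of these genes in the windows shown; windows in the table that overlap annotated exons of their gene, those of Adra2a and Adra2c, are not shown. Each run is the 250 bases before an annotated start, 5′ to 3′ on the gene's strand. Capitals mark matches on either strand to motifs of core promoters and of cAMP signalling. The TATA box was searched as TATAAA. The GC box, which binds Sp1, was searched as GGGCGG. The core of the cAMP response element was searched as TGACG, and the CCAAT box by the letters of its name. A match describes letters and is not evidence of a working site, and no 2 matches overlapped.
Adra1b, upstream start, chr11:43901238-43901487, minus strand: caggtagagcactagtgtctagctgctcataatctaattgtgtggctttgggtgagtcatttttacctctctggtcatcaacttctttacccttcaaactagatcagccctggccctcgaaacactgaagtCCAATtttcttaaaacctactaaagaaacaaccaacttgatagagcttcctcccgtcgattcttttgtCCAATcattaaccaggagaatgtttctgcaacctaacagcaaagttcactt
Adra1b, downstream start, chr11:43836490-43836739, minus strand: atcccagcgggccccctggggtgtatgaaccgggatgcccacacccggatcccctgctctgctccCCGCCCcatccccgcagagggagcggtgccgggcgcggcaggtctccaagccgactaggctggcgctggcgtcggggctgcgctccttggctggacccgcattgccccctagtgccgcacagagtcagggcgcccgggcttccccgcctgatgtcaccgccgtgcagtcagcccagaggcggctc
Adrb1, chr19:56721867-56722116, plus strand: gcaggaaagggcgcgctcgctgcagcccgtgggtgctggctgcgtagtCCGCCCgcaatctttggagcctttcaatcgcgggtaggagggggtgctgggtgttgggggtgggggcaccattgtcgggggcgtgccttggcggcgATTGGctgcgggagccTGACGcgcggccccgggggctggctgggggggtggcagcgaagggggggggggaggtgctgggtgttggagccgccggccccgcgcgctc

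No TATA box matched in these windows, where 12.4% of 32851 windows in the table hold one on either strand. The cAMP response element core matched before Adrb1, 90 to 86 bases ahead of RefSeq's start, against 17.8% of all windows. A GC box matched in the Adrb1 and downstream Adra1b windows (32.7% of all windows), and CCAAT in the Adrb1 window and, at 2 places, in the upstream Adra1b window (33.8%). The upstream Adra1b window had 41.6% G and C, against 72.8% in the downstream Adra1b window, 74.0% in the Adrb1 window and a median of 52.4% over the table. The downstream Adra1b window lies within the gene, outside its exons.

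In level, the α1D receptor gene stood first. As RPKM (counts scaled for exon length and library size), Adra1d averaged 14.7 ± 4.43 over the 12 libraries (SD), Adra2c 7.41 ± 1.39, Adrb1 4.85 ± 0.45, Adra2a 3.57 ± 0.93, Adra1b 1.65 ± 0.62 and Adra1a 1.38 ± 0.26. Against 14460 tested protein-coding genes, Adra1d lay above 78.3% of them in RPKM and Adra1a above 22.3%. Adra1d exceeded Adra2c in 12 of 12 libraries, with a ratio of RPKM between 1.48 and 2.41. Adra2c exceeded Adrb1 in 11 of 12, as Adrb1 did Adra2a, and Adra2a exceeded Adra1b in 12 of 12. The last neighbours did not separate beyond their spread: Adra1b exceeded Adra1a in 8 of 12 libraries, 5 of 6 MI and 3 of 6 Sham, with a ratio from 0.61 to 2.38. The exon lengths are those of the merged annotation, and which transcripts of a gene are used in this tissue was not measured.

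**Figure D1:**
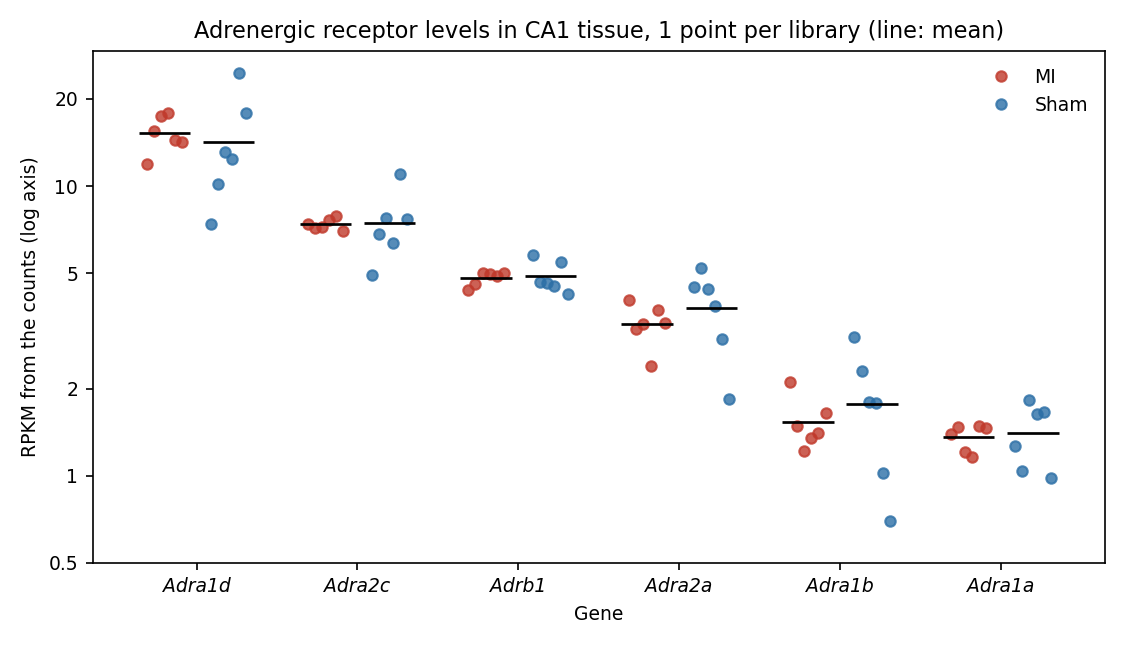
RPKM computed from the counts (log axis) of each receptor gene, ordered by mean level, with 1 point per library, MI left of Sham, and a line at each group's mean. Adra1d is highest at a mean of 14.7 and Adra1a lowest at 1.38, the groups overlap in all 6 genes, and the Sham points spread more widely than the MI points.

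The comparison of MI with Sham asks whether receptor transcripts in CA1 tissue change after the heart is injured. None of the 6 genes passed. With edgeR's quasi-likelihood F test and p-values adjusted over all 16829 genes (Benjamini-Hochberg, threshold 0.05), 0 of 6 were called, where 0% of all genes were; at an unadjusted p under 0.05 also 0 of 6, where 7.55% of all genes were. DESeq2 called 0 of 6, and 7 genes in all. All 6 MI libraries lay within the Sham range for each of the 6 genes. The share of all genes for which this holds was not computed. The SD of log2 CPM was larger in Sham for 76.2% of all tested genes, so this is not read as a trait of the receptors. The log2 fold changes, 1 positive and 5 negative, had a median of -0.03, against -0.0071 over all tested genes.

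Among the α1 receptors, Adra1d (ENSMUSG00000027335, chromosome 2, 131545850 to 131562283 on the minus strand, mm10, 1899 exonic bases) encodes α1D, a receptor of neurons and of vascular muscle. Its CPM was 22.6, 29.5, 33.1, 34.0, 27.5 and 27.1 in MI 1 to MI 6, against 14.0, 19.3, 24.8, 23.6, 46.6 and 34.0 in Sham 1 to Sham 6. Sham 1 was lowest and Sham 5 highest of all 12, a 3.33-fold range, and the MI libraries sat between them. The log2 fold change was 0.09 (SE 0.24, 95% interval -0.42 to 0.61), with an adjusted p of 0.956. Without Sham 5 it was 0.32 and without Sham 1 it was -0.04, so 1 Sham library at a time set its size and sign. An antisense gene, Gm14285, overlaps 147 exonic bases of Adra1d and held 6 to 22 counts in MI and 10 to 58 in Sham. No source used here says whether the counting used strand, so reads of the overlap cannot be assigned.

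Adra1b (ENSMUSG00000050541, chromosome 11, 43774606 to 43901210, minus strand), for α1B, ran almost the other way. Its CPM was 7.15, 5.01, 4.13, 4.56, 4.75 and 5.55 in MI 1 to MI 6, against 10.2, 7.78, 6.09, 6.01, 3.45 and 2.35 in Sham 1 to Sham 6. Sham 1, lowest for Adra1d, was highest for Adra1b, and Sham 5 and Sham 6, highest of the Sham libraries for Adra1d, were the lowest 2 of all. The log2 fold change was -0.20 (SE 0.29, interval -0.83 to 0.43), with an adjusted p of 0.911, and without Sham 1 it was 0.01. In RPKM, Adra1d stood between 5.63 and 14.3 times above Adra1b in MI libraries and between 2.45 (Sham 1) and 25.8 times (Sham 6) above it in Sham libraries.

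Adra1a (ENSMUSG00000045875, chromosome 14, 66635251 to 66771168, plus strand), for α1A, followed neither. It had 10.2 to 13.0 CPM in MI with a median of 12.5, against 8.56 to 15.97 CPM in Sham with a median of 12.7. Sham 6 was lowest and Sham 3 highest. The log2 fold change was -0.04 (SE 0.15, interval -0.36 to 0.28; adjusted p 0.973).

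Of the α2 receptors, Adra2a (ENSMUSG00000033717, chromosome 19, 54044151 to 54048982, plus strand) encodes α2A, the main autoreceptor of noradrenergic neurons, which also lies on cells that noradrenaline reaches. Its CPM was 19.6, 15.5, 16.1, 11.5, 18.1 and 16.2 in MI 1 to MI 6, against 21.7, 25.2, 21.3, 18.6, 14.3 and 8.89 in Sham 1 to Sham 6. No MI library exceeded the Sham median of 19.9 CPM, yet the lowest library of all, Sham 6, was also a Sham library. How many of all tested genes have no MI library above the Sham median was not computed. The log2 fold change was -0.18 (SE 0.21, interval -0.64 to 0.27; adjusted p 0.891); without Sham 6 it was -0.32, with an unadjusted p of 0.0532 and an adjusted p of 0.541 in the same test.

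Adra2c (ENSMUSG00000045318, chromosome 5, 35278319 to 35281763, plus strand) encodes α2C, which also holds back transmitter release. Its CPM was 25.5, 24.6, 24.8, 26.4, 27.1 and 24.1 in MI 1 to MI 6, against 17.0, 23.6, 26.8, 21.9, 38.0 and 26.6 in Sham 1 to Sham 6. The MI libraries lay between 24.1 and 27.1 CPM while Sham 1 was lowest and Sham 5 highest, as for Adra1d. The log2 fold change was -0.02 (SE 0.14, interval -0.33 to 0.30; adjusted p 0.987), and it was 0.13 without Sham 5.

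The β1 gene Adrb1 (ENSMUSG00000035283, chromosome 19, 56722199 to 56733113, plus strand) was the steadiest of the 6. It had 14.8, 15.5, 17.0, 16.8, 16.6 and 17.0 CPM in MI 1 to MI 6, against 19.6, 15.8, 15.6, 15.3, 18.5 and 14.4 CPM in Sham 1 to Sham 6. Its log2 fold change was -0.02 (SE 0.08, adjusted p 0.972), and the 95% interval of -0.19 to 0.15 spans fold changes of 0.88 to 1.11, the narrowest of the 6. For Adra1b the same interval spans 0.56 to 1.34, so differences of that size could not be told from none.

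**Figure D2:**
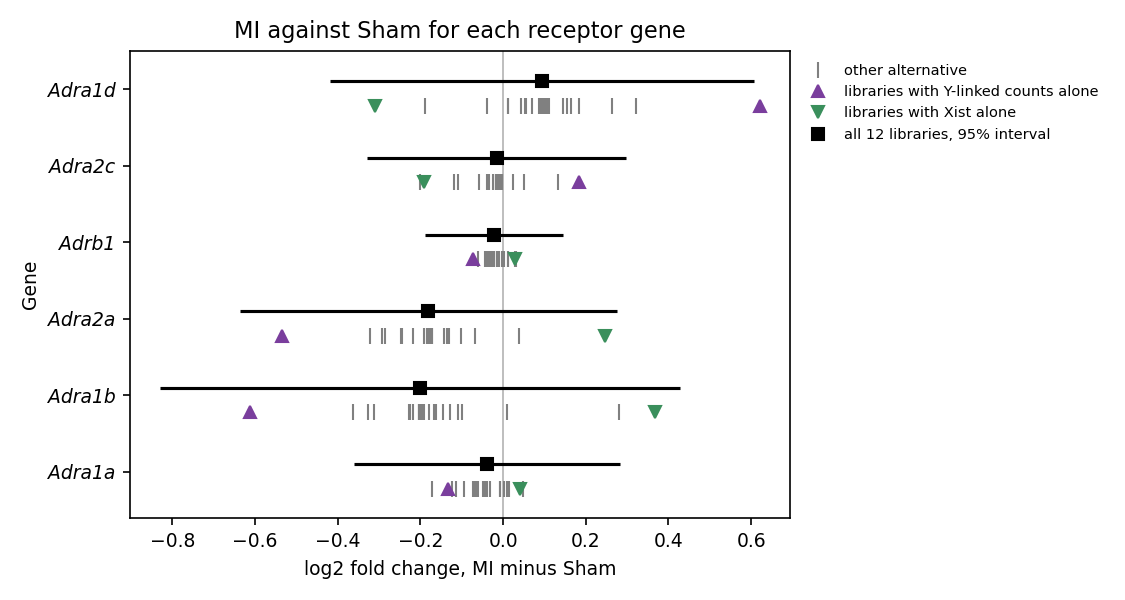
log2 fold change of MI minus Sham for each receptor gene; squares with bars show all 12 libraries with the 95% interval, and marks under them show the same value under each alternative. Every interval crosses 0, and for each of the 6 genes the values from the libraries with Y-linked counts (triangles up) and from those with Xist (triangles down) lie on opposite sides of 0. The share of all genes with opposite signs was not computed, and no receptor's difference between the sets passed the adjusted threshold.

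The labels do not give the animals' sex, and the libraries fell into sets by sex-linked genes. Y-linked counts were found in MI 1, MI 3, MI 4 and in Sham 1 to Sham 3, and Xist in the other 6. Within the libraries with Y-linked counts, MI minus Sham was 0.62 for Adra1d, -0.61 for Adra1b and -0.54 for Adra2a on the log2 scale. Within those with Xist the same differences were -0.31, 0.37 and 0.25. After adjustment 0 of 6 receptor genes were called in either set, where 1.26% of genes were called with Y-linked counts and 0% with Xist. At an unadjusted p under 0.05 it was 3 of 6 with Y-linked counts, where 16.3% of genes were called, and 0 of 6 with Xist, where 1.27% were. The difference between the sets' MI effects, tested as an interaction in edgeR's quasi-likelihood fit, was 0.94 for Adra1d (SE 0.37, unadjusted p 0.0280, adjusted p 0.596), -0.97 for Adra1b (SE 0.44, adjusted p 0.601) and -0.78 for Adra2a (SE 0.34, adjusted p 0.598), and none passed the adjustment over all genes. The set with Y-linked counts holds Sham 1, and the set with Xist holds Sham 5 and Sham 6. For Adra1b these are the highest library and the lowest 2, for Adra1d Sham 1 is the lowest and Sham 5 the highest, and for Adra2a Sham 6 is the lowest and Sham 2, with Y-linked counts, the highest.

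The libraries of the Sham group were spread more widely, which is given as a description with no test. The SD of log2 CPM was larger in Sham than in MI for 6 of 6, as it was for 76.2% of all tested genes. Adra2c had the most unequal pair, an SD of 0.06 in MI and 0.38 in Sham, and 99.6% of tested genes had a smaller ratio of Sham SD to MI SD. For Adra1b the SD was 0.27 in MI and 0.77 in Sham, for Adra1d 0.21 and 0.61, for Adra2a 0.26 and 0.54, for Adra1a 0.16 and 0.38, and for Adrb1 0.08 and 0.17, MI first in each. Leaving out Sham 1 and Sham 6, which was chosen after seeing the data, left the Sham SD larger for 6 of 6 and for 61.4% of all tested genes, with Adra1b at 0.49 in Sham. Against counting error the groups differed: for Adra1b the coefficient of variation was 20.6% in MI and 47.7% in Sham, where its counts alone would give 8.63% in MI and 8.17% in Sham. For Adra2c it was 4.42% in MI and 27.4% in Sham, where counts alone would give 3.90% in MI and 3.85% in Sham, and for Adrb1 5.68% in MI and 12.3% in Sham, against 4.86% in MI and 4.85% in Sham. The MI spread of Adra2c and Adrb1 was thus close to that of counting alone.

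Set against genes with 0.5 to 2 times the same mean counts, the spread within groups was high for 5 receptors and ordinary for β1. Adra1d varied more than 97.1% of 4947 such genes, Adra2a more than 94.99% of 4549, Adra1b more than 94.8% of 3054, Adra2c more than 89.8% of 4908 and Adra1a more than 86.1% of 4113. Adrb1 varied more than 52.3% of 4486. A share near 50% is the middle of such genes.

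Levels of Adra1b, Adra1d and Adra2a moved with region markers of the dissected tissue. The relations were computed for 3 of 14 marker lists (CA1, dentate, neocortex), picked after the scores of all 14 and the receptor levels had been seen, and the adjustment over 18 relations does not cover that choice. Adra1d was lower where the neocortex score was higher, with Pearson's r of -0.94 over 12 libraries (permutation test, p 5e-05, adjusted over 18 relations 0.0009) and Spearman's rho of -0.92 (permutation p 0.00011, adjusted 0.00198). Without Sham 1 and Sham 5, the libraries farthest from the median score, r was -0.83; within MI alone it was -0.95 and within Sham alone -0.94. Adra1b went the other way, with r of 0.82 (permutation p 0.00174, adjusted 0.0104) and rho of 0.87 (p 0.00053, adjusted 0.00477), 0.79 without the same 2 libraries, 0.80 within MI and 0.83 within Sham. Adra2a had r of 0.62 (permutation p 0.0400, adjusted 0.0900) and rho of 0.85 (p 0.00098, adjusted 0.00588), with r 0.81 without Sham 1 and Sham 5, 0.84 within MI and 0.57 within Sham.

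With the CA1 score, Adra1d had r of 0.85 (permutation p 0.0006, adjusted 0.0054) and rho of 0.74 (p 0.00772, adjusted 0.0347), with r 0.54 without Sham 1 and Sham 5, 0.96 within MI and 0.86 within Sham. Adra2c had r of 0.82 (permutation p 0.00464, adjusted 0.0167) and rho of 0.58 (p 0.0508, adjusted 0.0914), but r was 0.26 without Sham 1 and Sham 5 and 0.11 within MI, so that relation rests on those 2 libraries. Its relation with the neocortex score (r -0.86, permutation p 0.00378, adjusted 0.0167; rho -0.50, p 0.0977, adjusted 0.160) rests on them too, at -0.28 without them. With the dentate score, Adra1b had r of -0.73 (permutation p 0.00804, adjusted 0.0241) and Adra2a -0.71 (permutation p 0.0104, adjusted 0.0266); both fell in size without MI 1 and Sham 6, to -0.47 and -0.46. Their rho with that score was -0.68 for Adra1b (permutation p 0.0185, adjusted 0.0477) and -0.70 for Adra2a (permutation p 0.0144, adjusted 0.0477). Within MI alone, r was -0.43 for Adra1b and -0.45 for Adra2a, against -0.88 and -0.87 within Sham alone. Adra1d had rho of 0.68 with the dentate score (permutation p 0.01855, adjusted 0.0477), but r of 0.51 (permutation p 0.08803, adjusted 0.1585). Of the 18 relations of 6 receptors with 3 scores, 5 passed at an adjusted p under 0.05 by both measures. The share of all tested genes with such relations was not computed, so the count is not read as a trait of the receptors. The scores share library, scaling and depth with the receptor levels, no fit of the groups used the CA1 or neocortex score as a covariate, and in bulk tissue fewer cells of a type and less RNA per cell cannot be told apart.

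**Figure D3:**
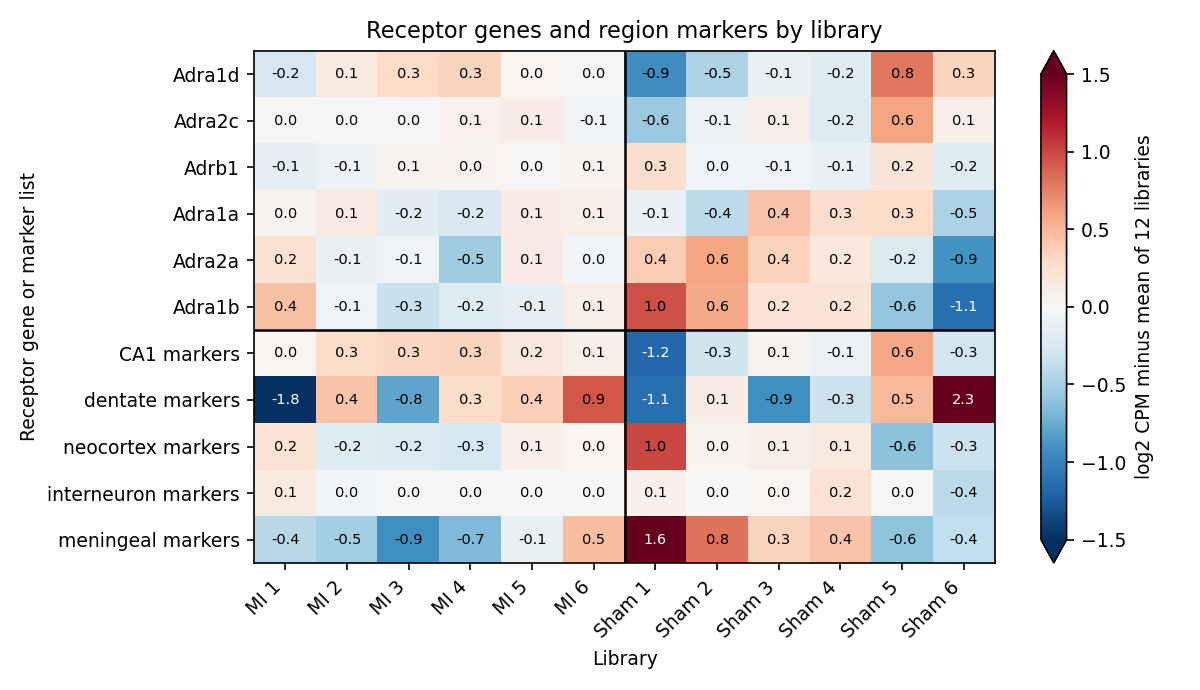
log2 CPM of each receptor gene, and the score of each marker list, minus its mean over the 12 libraries, with MI libraries left of the line and Sham libraries right of it; colours beyond 1.5 are capped, and the numbers are the values. Adra1d and Adra1b have opposite signs in 11 of 12 libraries, all but MI 6, and the CA1 and neocortex scores in 7 of 12.

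Among the receptors, Adra1b and Adra2a had the same rank order most nearly, and Adra1d opposed both. After removing each group's mean, Pearson's r over the 12 libraries was 0.87 for Adra1b with Adra2a (rho 0.91), 0.88 for Adra1d with Adra2c (rho 0.76), -0.89 for Adra1d with Adra1b (rho -0.93) and -0.71 for Adra1d with Adra2a (rho -0.90). These values are given as a description of 12 libraries, with no test. For Adra1d and Adra2c alike, Sham 1 was the lowest library and Sham 5 the highest. The SD of log2 CPM of Adra2c was 0.06 in MI and 0.38 in Sham, so its r values rest mostly on Sham libraries. Adrb1 had r between -0.10 and 0.26 with the other 5.

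Ranked by the same measure over 12646 genes with a mean of at least 50 counts, the genes most like each receptor were as follows, again as a description with no p. Adra1d was most like Kcnab2, a β subunit of potassium channels (r 0.98, rho 0.97), and Chst12, a sulfotransferase of chondroitin chains (r 0.98, rho 0.97). Adra1b was most like Tspyl3 (r 0.98, rho 0.97) and Gria4, an AMPA receptor subunit (r 0.97, rho 0.96). Adra2a was most like Plxnc1, a semaphorin receptor (r 0.98, rho 0.91), and Oxr1, an oxidation resistance protein (r 0.97, rho 0.98), and Adra2c like Inka1 (r 0.97, rho 0.88) and Bahd1, a chromatin protein (r 0.96, rho 0.93). Adra1a was most like Nkrf, a repressor of NF-κB targets (r 0.94, rho 0.95), and Fem1b (r 0.94, rho 0.94). Adrb1 was most like Umad1 (r 0.93, rho 0.87) and Rab6a, a GTPase of Golgi transport (r 0.89, rho 0.82). None of these 12 genes passed the adjusted threshold between MI and Sham; the smallest adjusted p in edgeR's test was 0.692, for Chst12.

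One receptor, Adra1d, is in the authors' deposited tables of changed genes, and there it is lower in MI. The authors' deposited table of 517 lower genes gives it a log2 fold change of -0.13 and an adjusted p of 0.0384, the opposite sign to the 0.09 from the counts. The authors' deposited table of genes higher in MI, 542 in all, lists none of the receptors. In the authors' deposited table the MI libraries run from 9.58 to 9.73 and the Sham libraries from 9.71 to 9.85 on a log2 scale whose unit and making are not stated, and 5 of 6 MI libraries lie under every Sham library. Sham 1, the lowest library in the counts, is at 9.85 there, among the highest.

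The spread differed between the sources as well. The within-group SD of Adra1d was 0.06 in the authors' deposited table and 0.45 in log2 CPM from the counts, and its range over 12 libraries was 0.27 and 1.73. This held across the listed genes: over the 1025 that were tested, the deposited values had the smaller SD in 1025, with a median of 0.07 in the authors' deposited tables and 0.18 from the counts. Genes outside the lists have no such values and could not be compared, and a small spread may itself have helped a gene to be listed. A turn of sign was less common among the listed genes, with 40 of 1025 (3.90%) opposite between the authors' deposited tables and the counts.

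**Figure D4:**
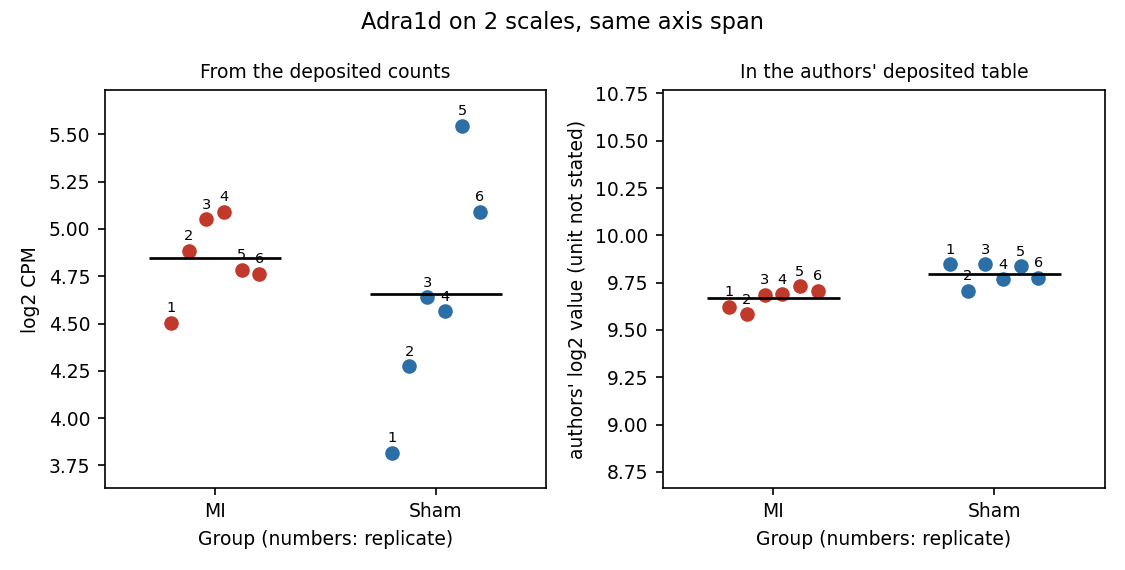
Adra1d in each library, MI left and Sham right, as log2 CPM from the counts (left panel) and as the log2 value in the authors' deposited table (right panel), on axes of the same span; numbers are replicates and lines are group means. From the counts the libraries run over 1.73 log2 units with MI on average higher, and in the authors' table over 0.27 with MI lower.

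Other genes of the family were at the edge of detection. Adrb3, for β3, had 1.33 ± 0.43 CPM in MI and 1.78 ± 0.82 CPM in Sham (n = 6 each, SD), and its log2 fold change was -0.41 (SE 0.30; edgeR adjusted p 0.786). An antisense gene, Gm45470, overlaps 839 exonic bases of Adrb3 and had 36 to 88 counts in MI and 28 to 103 in Sham, more than Adrb3's own 24 to 51 counts in MI and 19 to 73 in Sham, so the Adrb3 counts are uncertain. Adra2b, for α2B, had 2 to 5 counts in MI and 0 to 8 counts in Sham and was not tested; the count of 0 in Sham 6 allows a level of up to 0.141 CPM, at 3 counts, for counting error only. Family members could be told apart by 50-base reads: of the 50-base stretches of their transcripts in GENCODE M21, 0% of Adra2a and Adra2c, 0.148% of Adra1b, 0.386% of Adra1a and 0.390% of Adrb1 also occur in another gene on either strand, against 5.35% of Adra1d and 19.2% of Adrb3, whose shared stretches are those of the antisense genes.

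Downstream of the receptors, no listed gene passed the adjusted threshold in either direction, as for 0% of all genes. At an unadjusted p under 0.05, where 3.95% of all genes were higher and 3.59% lower in MI, the Gq arm of α1 receptors (Gq proteins, phospholipase C β, IP3 receptors and protein kinase C) had 0 of 14 in each direction, with a median log2 fold change of 0.06. Prkcd, a protein kinase C, had the smallest p at 0.31 (SE 0.17), followed by Itpr3, an IP3 receptor, at 0.32 (SE 0.18). The Gi arm of α2 receptors had 0 of 16 in each direction and a median of 0.03, with the G protein subunit genes Gnb4 at -0.16 (SE 0.08), Gng2 at -0.10 (SE 0.06) and Gnb5 at 0.09 (SE 0.07).

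The Gs and cAMP arm of β receptors had 2 of 22 higher and 2 lower at that unadjusted p, with a median of -0.01. Gnal, a Gs-type G protein, had 127.1 ± 9.70 CPM in MI and 145.3 ± 13.2 CPM in Sham (n = 6 each, SD), which gave -0.19 in log2 fold change (SE 0.07; edgeR adjusted p 0.597). Hcn2, a channel modulated by cAMP, had 0.20 (SE 0.08), and Rapgef4, a cAMP-activated exchange factor, 0.15 (SE 0.06). The phosphodiesterases, which break down cAMP, had 2 of 13 higher and 2 lower, with a median of -0.06. Pde1b had 105.6 ± 12.3 CPM in MI and 142.2 ± 38.6 CPM in Sham, with a log2 fold change of -0.43 (SE 0.16; edgeR adjusted p 0.597), Pde8a 0.32 (SE 0.12) and Pde7b -0.68 (SE 0.28). Receptor kinases, arrestins and scaffolds had 0 of 16 higher and 1 lower, with a median of -0.03. Their smallest p belonged to Rgs7, a regulator of Gi and Go signalling, at -0.22 (SE 0.08), followed by Akap5, an anchor of protein kinase A, at -0.15 (SE 0.08) and Grk6, a receptor kinase, at 0.08 (SE 0.05). The adjusted p of every gene named here was at least 0.597 in edgeR's quasi-likelihood test.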

How the data were processed

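Per the labels' protocols, polyadenylated RNA of dissected CA1 was made into libraries with a TruSeq kit and sequenced as single-end 50-base reads. The submitters' processing notes name STAR 2.5.2b, Subread 1.5.1, its counter featureCounts, and FastQC 0.11.5, with mm10 as the build; no role, setting or use of strand is stated. The authors deposited raw counts, 1 whole number for each Ensembl gene and library. The authors also deposited log2 expression values, log2 fold changes and adjusted p-values for genes they list as higher or lower; how these were made is not stated.

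GENCODE M21 (mm10) gave symbols, coordinates and merged exon lengths for 48349 of 48709 IDs. Genes were kept by filterByExpr, scaled by TMM and tested two-sided in R 4.3.3 with edgeR 4.0.16, using its robust quasi-likelihood F test and no covariate, over all 12 libraries, with Benjamini-Hochberg adjustment over all 16829 genes and a threshold of 0.05. CPM and RPKM are the scaled counts; log2 CPM used a prior count of 2. DESeq2 1.42.0, limma-voom (limma 3.58.1) and other scalings, filters and sets of libraries were alternatives. The procedure was also run on simulated counts with known fold changes, each gene drawn on its own. Shared differences in tissue content were not simulated, so that run does not show the power to detect small changes in these libraries. Relations with marker scores used permutation tests with 100000 resamples, two-sided. The listed symbol Nov was matched as Ccn3.

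The relations with marker scores were added after the data were seen. The members and gene lists were chosen with earlier results of these data known. The genes named were the 6 receptors, the rest of the family, the 3 lowest p-values in each pathway list, and the 2 genes most like each receptor; some genes that this rule names are not reported here. Deviations of same-numbered MI and Sham libraries correlated between -0.35 and 0.41, which is mixed. The numbers are not known to pair libraries, so the replicate number was not taken as a pairing.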

Additional observations from a re-analysis of the deposited data

How the results depend on the processing

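Of 6 receptor genes, 0 passed the threshold in edgeR with all 12 libraries and in each of the 25 alternatives, with adjusted p between 0.215 (Adra2a, Y-linked set) and 1. Directions were less firm. Among libraries with Xist the sign turned for Adra1a (0.042), Adra1b (0.37), Adra1d (-0.31), Adra2a (0.25) and Adrb1 (0.028), and among those with Y-linked counts for Adra2c (0.18). With the dentate and meningeal marker scores as covariates it turned for Adra1b (0.28, unadjusted p 0.0361, adjusted 0.861), Adra1d (-0.19), Adra2a (0.039) and Adrb1 (0.013). With limma-voom and sample weights it turned for Adra2c (0.050) and Adrb1 (0.028). With the replicate number as a block it turned for Adra2c (0.023), 0 of 6 receptors and 0 genes passed, and no other call or sign changed; the numbers are not known to pair libraries, since deviations of same-numbered libraries correlated between -0.35 and 0.41 and 3 of 6 MI libraries and 1 of 6 Sham libraries correlated best with their own number. Leaving out each library in turn gave -0.12 to 0.048 for Adra1a, -0.36 to 0.011 for Adra1b, -0.039 to 0.32 for Adra1d, -0.32 to -0.07 for Adra2a, -0.11 to 0.13 for Adra2c and -0.060 to 0.030 for Adrb1. Leaving out Sham 1 and Sham 6, chosen from marker scores after seeing the data, changed no sign. It took the place of a fit without Sham 5 and Sham 6, which was run and then dropped because that pair had been picked from the receptors' own counts; none of the receptors passed the adjusted threshold there either, although the fold changes of Adra1b, Adra1d and Adra2a lay farther from 0 with lower unadjusted p-values and, unlike in the fit of all libraries, other genes passed. The other scalings and filters on low counts changed none. Over all genes the count called was 0 in edgeR, against 7 in DESeq2 (1305 at an unadjusted p under 0.05, 1270 in edgeR) and 211 in the Y-linked set; the cause was not tested. Adra2b could not be tested at this depth, and Adrb3 rests on at most 73 counts a library.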

Other observations

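Transcripts of genes that make, store and clear noradrenaline were counted beside the receptors. Noradrenaline itself was not measured, and the brainstem neurons whose axons bring it were not part of the dissected tissue. Of 7 genes of synthesis, storage and reuptake, 4 passed the filter on low counts. Their log2 fold changes were 4 of 4 positive (median 0.16), where 47.6% of all tested genes were higher in MI. At an unadjusted p under 0.05 in edgeR 1 of these genes was called, where 7.55% of all genes were. That gene was Th, for tyrosine hydroxylase, the first enzyme of the pathway, with 1.79 ± 0.53 CPM in MI and 1.11 ± 0.41 CPM in Sham (n = 6 each, SD), which gave 0.70 in log2 fold change (SE 0.28; edgeR unadjusted p 0.0256, adjusted p 0.614). Slc18a2, the vesicular monoamine transporter, had 0.12 (SE 0.10) and Ddc, which makes dopamine from its precursor, 0.20 (SE 0.18). Of the 5 genes of breakdown and low-affinity uptake, 0 passed at an unadjusted p under 0.05, where 7.55% of all genes did. Maob, a monoamine oxidase, had 0.10 (SE 0.07), and the transporter genes Slc29a4 and Slc22a3 had -0.45 (SE 0.37) and -0.34 (SE 0.35).

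Of the 5 dopamine receptor genes 3 were tested. Drd2 had -0.25 (SE 0.18), Drd1 -0.23 (SE 0.29) and Drd5 0.31 (SE 0.42), each as a log2 fold change of MI minus Sham, with edgeR adjusted p of 0.779, 0.899 and 0.906. Drd5 had 11.99 ± 2.38 CPM in MI and 9.60 ± 6.81 CPM in Sham, so its Sham libraries were the more widely spread. The SD of log2 CPM was larger in Sham for 76.2% of all tested genes.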
